A study of Mus musculus with 6 samples.

Results

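The genes examined here encode ligands and receptors of 4 growth factor systems that act on or come from fibroblasts, namely the platelet-derived growth factor (PDGF) ligands Pdgfa, Pdgfb, Pdgfc and Pdgfd and their receptors Pdgfra and Pdgfrb, the hepatocyte growth factor gene Hgf and its receptor gene Met, the colony-stimulating factor gene Csf1, and the KIT ligand gene Kitl. They were chosen by symbol, as the probe sets whose single annotated symbol is 1 of these 10 names, and each gene had 1 probe set. They are 10 of the 19938 genes that the arrays name singly.

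PDGF ligands are dimers that bring receptor tyrosine kinases together and drive fibroblasts to divide and migrate. The alpha receptor binds the A, B and C chains, and the beta receptor binds the B and D chains. HGF is secreted by mesenchymal cells as an inactive precursor and acts on MET, classically on epithelial cells. CSF1 and KIT ligand are made by stromal cells for other cell types, macrophages through CSF1R and mast cells, melanocytes and blood progenitors through KIT, and these receptors are relatives of the PDGF receptors.

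RNA came from NIH/3T3 fibroblasts, a mouse line that grows without limit in culture, after stable transfection with HA-tagged RPB1, the catalytic subunit of RNA polymerase II. In 8KR cells (3 arrays) every lysine at the seventh position of the C-terminal repeats of RPB1 was an arginine, which cannot be acetylated, and in wild type cells (3 arrays) those lysines were intact. The medium of both groups held alpha-amanitin at 2 ug/ml, which inhibits the endogenous polymerase, and serum from bovine calves at 10%, and no stimulation with a growth factor is described. Each sample was measured on 1 Affymetrix Mouse Gene 1.0 ST array and is called a biological replicate, although the sources used here do not say whether the 3 samples of a group came from 1 transfected population, so that p-values measure only the spread between these samples. Values are log2 intensities, in which 1 unit is a 2-fold change, and levels of different genes are not compared because each probe set has its own brightness.

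The 6 arrays were alike in overall level, with median log2 intensities of 4.53 to 4.54 in 8KR cells and 4.49 to 4.52 in wild type cells. Correlations over the 28543 tested probe sets were 0.982 to 0.984 within groups and 0.975 to 0.978 between them. Polr2a, which encodes RPB1, lay at 12.12, 12.13 and 12.13 on the 8KR arrays and at 12.10, 12.11 and 12.09 on the wild type arrays, and its probe set is not known to tell the mutant from the intact sequence. Of 13 fibroblast markers, 11 were detected above the study's cutoff of 3.0 in at least 1 group, including Vim, Thy1, Col1a1 and Col1a2, whereas Fap and Lum were not. By the test described below, 2 of these 11 fell in 8KR cells and none rose. Among all tested genes 3.06% fell and 2.33% rose. The 2 were P4ha1 (log2 difference -0.59, adjusted p = 0.0355 from limma) and Col3a1 (-0.52, adjusted p = 0.0364 from limma). The first encodes a prolyl hydroxylase of collagen and the second a collagen. In all, 5 of the 11 had an unadjusted p under 0.05 from limma, beside 21.8% of all tested genes. Markers of macrophages (0 of 6 tested), endothelium (0 of 6), epithelium (0 of 8), mast cells (0 of 3), pericytes and smooth muscle (0 of 7) and adipocytes (0 of 4) held no gene that passed (0, 1, 1, 0, 3 and 1 had an unadjusted p under 0.05 from limma, as did 21.8% of all tested genes). Averaged over the whole list, fibroblast markers lay at 8.51 to 8.59 on the 8KR arrays and 8.60 to 8.65 on the wild type arrays. Pericyte and smooth muscle markers lay at 4.40 to 4.46 and 4.69 to 4.78 in the same 2 groups. Of the 7 tested, Cnn1 (log2 difference -1.03), Des (-0.74) and Cspg4 (-0.64) were lower without passing. Abcc9 (0.17), Kcnj8 (-0.05), Notch3 (-0.03) and Myh11 (0.0012) had smaller differences, and the median was -0.05. Whether these shifts have a part in the differences below was not tested.

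Expression of 2 ligand genes and 1 receptor gene was lower in 8KR cells. In such bulk samples, fewer cells with a transcript and less of it per cell cannot be told apart. Hgf, Kitl and Pdgfra fell, none of the 10 genes rose, 6 did not pass, and Pdgfd was not tested because neither group had a mean above 3.0. The test was limma's moderated linear model over all probe sets above that cutoff, with Benjamini-Hochberg adjustment and a threshold of 0.05. By the same test 5.39% of all 17145 tested genes were called, 3.06% as lower and 2.33% as higher in 8KR cells. The arrays of the 2 groups did not overlap for 7 of the 9 tested genes, 5 lower and 2 higher in 8KR cells, as was the case for 29.7% of all tested genes (14.7% lower and 15% higher). The median log2 difference, 8KR minus wild type, was -0.19 over the 9 genes and 0.01 over all tested genes, and the median size of the difference regardless of sign was 0.34 and 0.14. These 10 genes were chosen with earlier results of these arrays known, so their counts are a description.

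**Figure D1:**
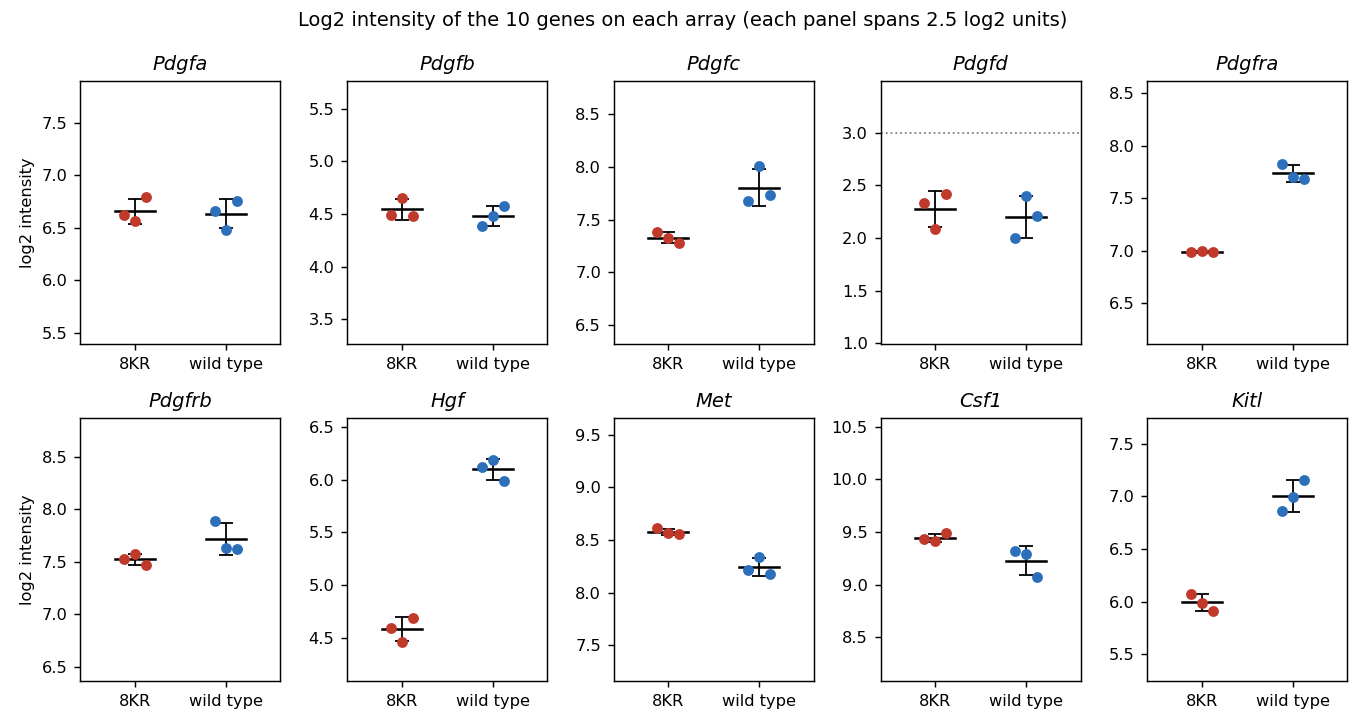
Log2 intensity (vertical axis) of each of the 10 genes on the 3 8KR arrays (red, left) and the 3 wild type arrays (blue, right), where points are single arrays, horizontal lines are means and error bars show the SD; the dotted line in the Pdgfd panel is the cutoff of 3.0. All 8KR points of Hgf, Kitl and Pdgfra lie below the lowest wild type point of the same gene, with the narrowest gap, 0.69 log2 units, for Pdgfra.

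The stretches before the transcription starts of Hgf, Kitl and Pdgfra are shown because these are the genes that fell. They come from RefSeq on build GRCm38.p6, in which 8 of the 10 genes were matched by symbol, and each covers the 250 bases before an annotated start. Capitals mark matches, on either strand, to the GC box GGGCGG, the TATA motif TATAAA, the motif CCAAT, the E-box CACGTG, the AP-1 motif TGANTCA or a CArG box, the element bound by serum response factor. Hgf has a second annotated start further downstream, whose window is not printed.
Kitl at chr10:100015571-100015820 on the plus strand: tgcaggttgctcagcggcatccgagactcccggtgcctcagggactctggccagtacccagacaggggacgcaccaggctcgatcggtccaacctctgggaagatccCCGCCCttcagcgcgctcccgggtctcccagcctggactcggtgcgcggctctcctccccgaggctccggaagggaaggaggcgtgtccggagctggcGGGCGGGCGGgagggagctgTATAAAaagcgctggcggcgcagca
Hgf at chr5:16553245-16553494 on the plus strand: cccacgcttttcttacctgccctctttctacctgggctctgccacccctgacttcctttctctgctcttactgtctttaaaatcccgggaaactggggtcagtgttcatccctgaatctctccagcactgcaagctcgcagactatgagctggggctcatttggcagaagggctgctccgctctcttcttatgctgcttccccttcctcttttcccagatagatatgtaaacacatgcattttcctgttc
Pdgfra at chr5:75152001-75152250 on the plus strand: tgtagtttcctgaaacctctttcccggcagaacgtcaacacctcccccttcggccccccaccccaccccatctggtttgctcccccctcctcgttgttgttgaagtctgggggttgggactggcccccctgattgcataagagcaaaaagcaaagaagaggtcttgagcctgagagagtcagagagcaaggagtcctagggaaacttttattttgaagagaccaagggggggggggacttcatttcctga

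The 3 windows differed in composition. The Kitl window held 23 CpG dinucleotides and 69.2% G and C, a TATAAA match whose first base lies 25 bases before the start, and 3 matches to GGGCGG, of which 2 overlap each other. The Hgf and Pdgfra windows held 4 CpG dinucleotides each and 50.8% and 54.4% G and C, and neither contained any of the 6 motifs, nor did the second Hgf window. Of 32851 such windows in the table, 12.4% held TATAAA, 32.7% GGGCGG, 33.8% CCAAT, 6.02% CACGTG, 6.75% TGANTCA and 1.47% a CArG box, and the median number of CpG dinucleotides was 6. Of the genes that did not pass, Met had 24 CpG dinucleotides and matches to the GC box, the E-box and the AP-1 motif, and Pdgfc had 1 CArG box, with its first base 17 bases before the start. Such matches are letters in a window, and binding at them was not measured.

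Hgf showed the largest difference of the 9 tested genes. Its log2 intensity was 4.59, 4.46 and 4.69 on the 8KR arrays, against 6.12, 6.18 and 5.98 on the wild type arrays. The groups lay far apart, with each 8KR array below each wild type array. Means were 4.58 ± 0.12 in 8KR cells and 6.10 ± 0.10 in wild type cells (SD, n = 3 each), so that the intensity in 8KR cells was 0.349 times that in wild type cells (log2 difference -1.52 with a standard error of 0.10, 95% confidence interval -1.75 to -1.28, adjusted p = 0.00232 from limma). Among all tested genes, 0.297% had a more negative difference. The genes whose centred profiles over the 6 arrays lay closest to that of Hgf were Thsd7a (root mean square difference 0.07), the smooth muscle actin gene Actg2 (0.08) and Pkia (0.09).

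MET, the receptor for HGF, is the only known signaling receptor of that ligand. Met lay at 8.61, 8.57 and 8.56 on the 8KR arrays, against 8.21, 8.34 and 8.18 on the wild type arrays, and every 8KR value was the higher. Its means were 8.58 ± 0.03 in 8KR cells and 8.24 ± 0.08 in wild type cells (SD, n = 3 each), and the log2 difference of 0.34 (95% confidence interval 0.15 to 0.52, adjusted p = 0.0713 from limma) did not pass. The direct comparison of the 2 genes used the log2 value of Hgf minus that of Met on each array, in which probe brightness cancels once the groups are compared. This ratio was -4.02, -4.11 and -3.87 on the 8KR arrays, against -2.09, -2.15 and -2.20 on the wild type arrays, a shift of -1.85. All 3 8KR arrays were below all 3 wild type arrays, which follows from the separate values of Hgf and Met. The exact two-sided permutation test could therefore give only p = 0.10, the smallest value that 3 arrays against 3 allow (adjusted p = 0.10 over the 2 such ratios computed).

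Kitl encodes the membrane-bound or secreted ligand of KIT, also called stem cell factor. Kitl lay at 6.08, 5.99 and 5.91 on the 8KR arrays, against 6.86, 6.99 and 7.16 on the wild type arrays. The 2 sets of arrays were well separated. The mean was 5.99 ± 0.08 in 8KR cells and 7.00 ± 0.15 in wild type cells (SD, n = 3 each), an intensity 0.496 times that in wild type cells (log2 difference -1.01, standard error 0.10, 95% confidence interval -1.26 to -0.76, adjusted p = 0.00823 from limma). Profiles closest to that of Kitl were those of Fam43a (root mean square difference 0.07), Gchfr (0.08) and Anapc13 (0.09). These 3 genes had log2 differences of -0.96, -1.08 and -0.94, near that of Kitl. Kit itself lay close to the cutoff, at 3.54, 3.32 and 3.36 on the 8KR arrays and at 3.36, 3.49 and 3.66 on the wild type arrays, and the groups overlapped (log2 difference -0.10, 95% confidence interval -0.36 to 0.17, adjusted p = 0.699 from limma).

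Csf1, the growth factor for macrophages and their precursors, lay slightly higher on each 8KR array without passing. Its values were 9.43, 9.42 and 9.48 in 8KR cells and 9.31, 9.29 and 9.07 in wild type cells. Means were 9.44 ± 0.04 and 9.22 ± 0.14 in the same 2 groups (SD, n = 3 each; log2 difference 0.22, 95% confidence interval -0.01 to 0.45, adjusted p = 0.266 from limma). The receptor gene Csf1r, which fibroblasts normally lack, lay at 3.42, 3.78 and 3.53 on the 8KR arrays and at 3.52, 3.22 and 3.66 on the wild type arrays, near the cutoff in both groups (adjusted p = 0.752 from limma). Il34, which encodes the other ligand of CSF1R, had a log2 difference of -0.33 with a wide 95% confidence interval of -1.05 to 0.38.

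Of the 2 PDGF receptors, Pdgfra fell and Pdgfrb did not pass. Pdgfra lay at 6.98, 6.99 and 6.99 on the 8KR arrays, against 7.83, 7.70 and 7.68 on the wild type arrays. The 8KR arrays nearly coincided and lay below the wild type arrays. Means were 6.99 ± 0.0050 in 8KR cells and 7.74 ± 0.08 in wild type cells (SD, n = 3 each), an intensity 0.596 times that in wild type cells (log2 difference -0.75, standard error 0.08, 95% confidence interval -0.93 to -0.56, adjusted p = 0.00785 from limma). The centred profiles of Gbf1 (root mean square difference 0.03), the matrix protein gene Svep1 (0.04) and the interferon-inducible gene Ifitm3 (0.04) lay closest to it. These 3 genes had log2 differences of -0.77, -0.77 and -0.79, near that of Pdgfra.

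Pdgfrb lay at 7.53, 7.57 and 7.47 on the 8KR arrays, against 7.89, 7.63 and 7.62 on the wild type arrays. The groups were separate by a narrow margin, and wild type replicate 1 stood above the other 2. Means were 7.52 ± 0.05 in 8KR cells and 7.71 ± 0.15 in wild type cells (SD, n = 3 each; log2 difference -0.19, 95% confidence interval -0.44 to 0.05, adjusted p = 0.361 from limma). The ratio of the receptors, as the log2 value of Pdgfra minus that of Pdgfrb, was -0.54, -0.58 and -0.48 on the 8KR arrays, against -0.06, 0.07 and 0.06 on the wild type arrays. The ratio was therefore lower on all 3 8KR arrays, by 0.55 on the log2 scale, which follows from the separate values of Pdgfra and Pdgfrb. The exact two-sided permutation test could thus give only p = 0.10, again the smallest value possible.

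Among the PDGF ligands, no gene passed. Pdgfc, whose product needs cleavage before it binds the alpha receptor, lay at 7.38, 7.33 and 7.28 on the 8KR arrays, against 7.67, 8.01 and 7.73 on the wild type arrays. The groups did not overlap, and wild type replicate 2 was the highest array. Means were 7.33 ± 0.05 in 8KR cells and 7.80 ± 0.18 in wild type cells (SD, n = 3 each; log2 difference -0.47, 95% confidence interval -0.74 to -0.21, adjusted p = 0.0711 from limma). Pdgfc and Met were the closest to the threshold among those that missed it. Both passed when the cutoff on intensity was raised to 5.0 (adjusted p = 0.0307 and 0.0265 from limma), when limma's variance followed intensity (0.0366 and 0.0238) and over probe sets with a single symbol (0.0308 and 0.0433). Under the other alternatives neither passed, and with an array left out the adjusted p from limma reached 0.185 for Pdgfc and 0.188 for Met.

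Pdgfa, which encodes the chain that binds only the alpha receptor, lay at 6.62, 6.56 and 6.79 on the 8KR arrays, against 6.66, 6.48 and 6.76 on the wild type arrays. Its groups overlapped, and the log2 difference was 0.03 (95% confidence interval -0.24 to 0.29). Pdgfb, whose product binds both receptors, lay at 4.50, 4.66 and 4.48 on the 8KR arrays, against 4.39, 4.48 and 4.58 on the wild type arrays, and overlapped as well (95% confidence interval -0.16 to 0.28). Pdgfd, a ligand of the beta receptor, lay below the cutoff of 3.0 on each array, with 2.33, 2.09 and 2.42 in 8KR cells and 2.00, 2.40 and 2.21 in wild type cells.

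**Figure D2:**
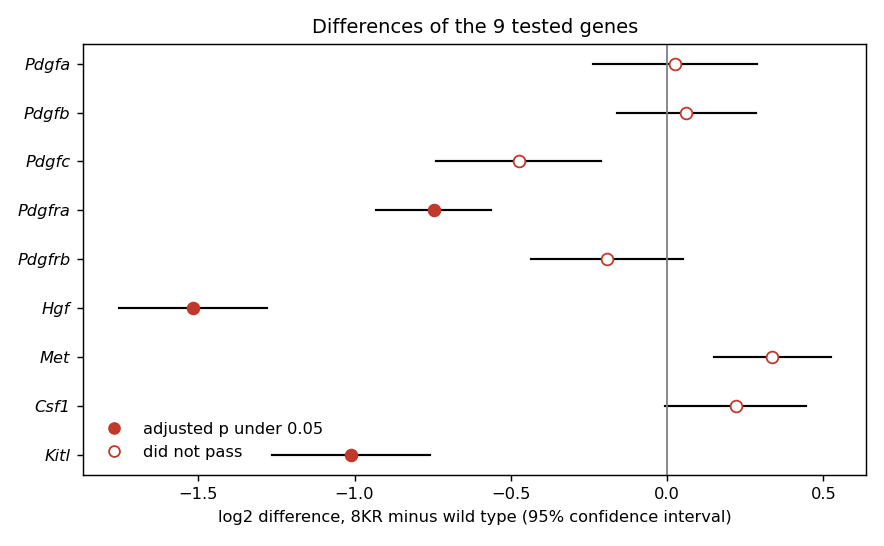
Log2 difference, 8KR minus wild type (horizontal axis), of the 9 tested genes with its 95% confidence interval from limma; filled points passed at an adjusted p under 0.05. Hgf (-1.52), Kitl (-1.01) and Pdgfra (-0.75) lie left of 0 with their whole intervals, and so does Pdgfc (-0.47), which did not pass after adjustment.

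A gene next to Hgf also fell, no neighbour of Kitl or Pdgfra passed, and called neighbours were also found beside Met and Pdgfc, which did not pass themselves. Neighbours were taken as the 5 tested genes on each side in RefSeq order. Next to Hgf on chromosome 5, Cacna2d1, which encodes an auxiliary subunit of calcium channels, lay at 4.53, 4.49 and 4.51 on the 8KR arrays, against 5.79, 5.71 and 5.86 on the wild type arrays (log2 difference -1.27 with a standard error of 0.08, adjusted p = 0.00180 from limma). On the other side Sema3c had a log2 difference of -0.26 and did not pass. A negative difference was found in 8 of the 10 neighbours, beside about 48% of all tested genes, with a median of -0.26. In limma 1 of the 10 passed and 3 had an unadjusted p under 0.05, beside 5.39% and 21.8% of all tested genes. Whether this neighbourhood has a part in the Hgf difference was not tested.

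None of the 10 neighbours of Kitl on chromosome 10 passed, nor of Pdgfra on chromosome 5, although 2 in each set had an unadjusted p under 0.05 from limma, beside 21.8% of all tested genes. Those nearest to Kitl were Csl (log2 difference -0.26) and Tmtc3 (-0.01), and those nearest to Pdgfra were Gsx2 (0.07) and Kit (-0.10). Medians over the neighbours were -0.03 for Kitl and -0.12 for Pdgfra. Around Pdgfrb, whose next gene is Csf1r, all 10 neighbours had a positive difference (median 0.14). Pdgfrb itself had a negative one, as did about 48% of all tested genes. None of the 10 passed, and 3 had an unadjusted p under 0.05 from limma, beside 21.8% of all tested genes. Of the 10 neighbours of Met on chromosome 6, 3 passed, beside 5.39% of all tested genes. Their log2 differences were 1.15 for Tes, 0.47 for Wnt2 and -0.50 for Cav2. Of the 10 neighbours of Pdgfc on chromosome 3, Gask1b alone passed (0.47). None of the 10 around Pdgfa, Pdgfb or Csf1 did. There 2 each had an unadjusted p under 0.05 from limma, beside 21.8% of all tested genes.

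**Figure D3:**
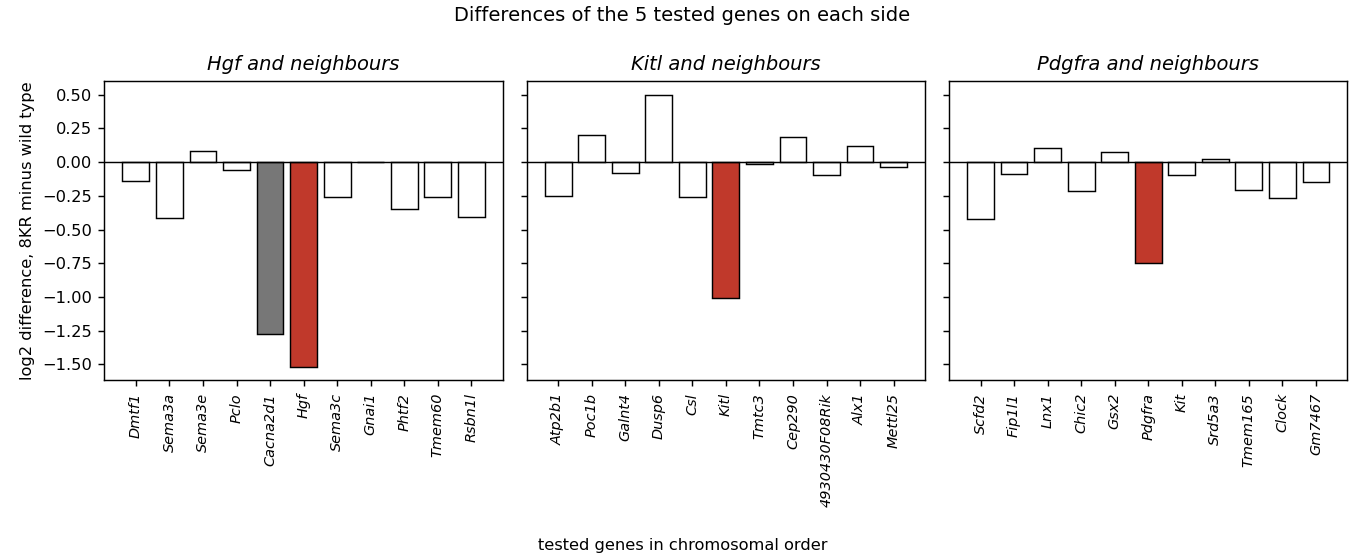
Log2 difference, 8KR minus wild type (vertical axis), of Hgf, Kitl and Pdgfra (red) and of the 5 tested genes on each side in chromosomal order; filled bars passed at an adjusted p under 0.05 and open bars did not. Cacna2d1 (-1.27), beside Hgf (-1.52), is the only filled neighbour in the 3 panels.

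Other genes of these pathways changed in both directions. Of 92 genes in lists of sister receptors and ligands, activating and shedding proteases, co-receptors, adaptors and negative regulators, 88 were tested, 6 rose and 5 fell, beside 2.33% higher and 3.06% lower among all tested genes, and the median log2 difference was -0.03. None of the 7 sister receptors and ligands (Kit, Csf1r, Flt3, Flt3l, Il34, Mst1 and Mst1r) passed in limma, and at an unadjusted p under 0.05 the count was also 0. The count was lower with any 1 array left out, as 3, 3 and 2 of the 88 genes passed without 8KR replicate 1, 2 or 3, and 4, 2 and 2 passed without wild type replicate 1, 2 or 3, while calls among all genes numbered 274 to 293 in place of 924.

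Outside the cell, proteases of these systems moved in opposite directions. Plau, the urokinase that activates PDGF-D, rose to 7.81 ± 0.17 in 8KR cells, against 7.19 ± 0.04 in wild type cells (SD, n = 3 each; log2 difference 0.62, adjusted p = 0.0326 from limma). Pcsk7, a proprotein convertase, fell (log2 difference -0.52, adjusted p = 0.0481 from limma), and the remaining 12 of 14 activating proteases and inhibitors did not pass. Among 6 shedding proteases, the membrane metalloprotease gene Mmp14 rose (0.60) and the sheddase gene Adam10 fell (-0.47). Of 12 co-receptors and extracellular binding proteins, Thbs1, which encodes the matrix protein thrombospondin-1, rose by 1.05 on the log2 scale, and Sparc, whose product binds PDGF chains, fell by 0.52.

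Inside the cell, 4 of 27 adaptors and effectors that act next to the receptors passed. Pik3r3, a regulatory subunit of phosphoinositide 3-kinase, lay at 5.12, 4.91 and 4.77 on the 8KR arrays, against 6.20, 6.31 and 6.12 on the wild type arrays, the largest difference among the 88 genes (log2 difference -1.28 with a standard error of 0.12, adjusted p = 0.00599 from limma). The transcription factor gene Stat3 also fell (-0.50). Sos1, which loads RAS with GTP downstream of these receptors, rose by 0.70, and Slc9a3r1, a scaffold that can bind the tail of PDGF receptors, rose by 0.76. Of 22 phosphatases, ubiquitin ligases and other negative regulators, the receptor phosphatase gene Ptprf alone passed, with a log2 difference of 0.96.

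**Figure D4:**
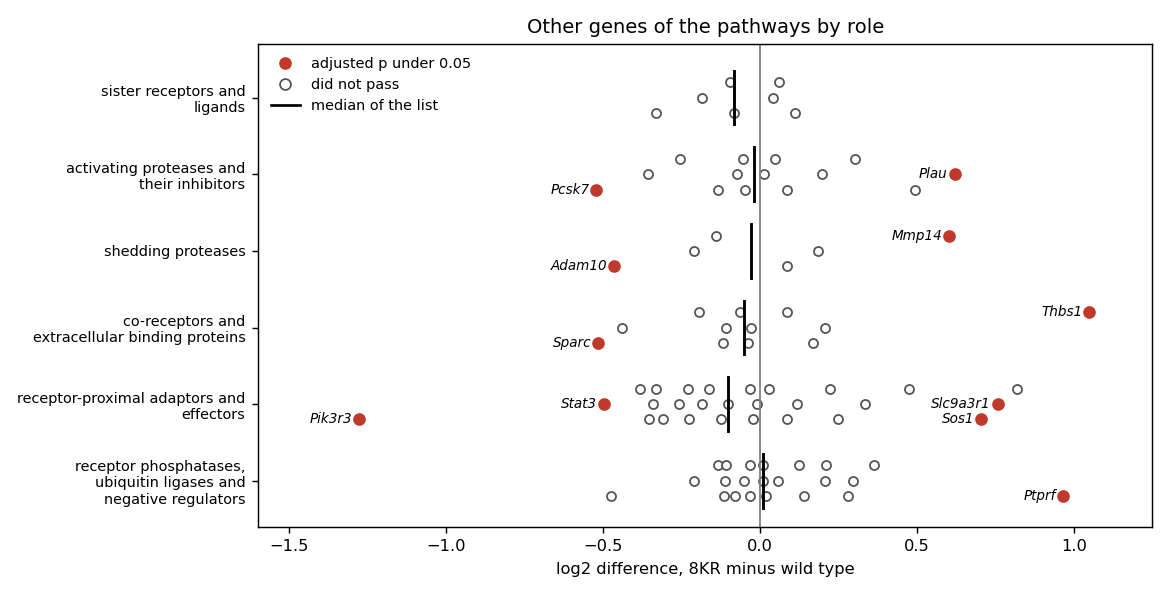
Log2 difference, 8KR minus wild type (horizontal axis), of the 88 other genes of the pathways in 6 lists by role, with 1 point per gene, red where the adjusted p was under 0.05, and a bar at the median of each list. Red points lie on both sides of 0, from Pik3r3 (-1.28) to Thbs1 (1.05), and the list of sister receptors and ligands has none.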

How the data were processed

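The authors hybridized RNA from 3 8KR and 3 wild type samples to Affymetrix Mouse Gene 1.0 ST arrays and deposited normalized log2 intensities, 1 per probe set and array. Affymetrix Power Tools 1.12.0 appears in the submitters' processing notes. Neither the normalization nor a genome build is given in the sources used here. A different summary of the probes could change the differences.

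Following the methods, a probe set was kept if its mean exceeded 3.0 in 8KR or in wild type cells, which left 28543 of 35557. Each was fitted by group in limma 3.58.1 (lmFit, then eBayes, without covariates; R 4.3.3), with Benjamini-Hochberg adjustment over all probe sets tested and a threshold of 0.05. Symbols came from the platform annotation, updated through RefSeq (GRCm38.p6), and 21789 probe sets had 1 symbol. A gene was represented by its brightest probe set, which gave 17145 genes. Pathway genes were listed by role, and those called were named, up to 4 a list. Also named were called or adjacent neighbours of called members and the 3 genes with the most similar centred profiles. P4ha1, Col3a1, Tes, Wnt2, Cav2, Gask1b and the pericyte and smooth muscle markers fall outside this rule and were named after their values were seen. Polr2a, Csf1r, Il34, Flt3, Flt3l, Mst1, Mst1r and the other fibroblast markers named fall outside it as well. Members and lists were chosen with earlier results of these data known. The fit was tested on simulated data. Probe sets without a single symbol were fitted but not named. Some listed genes were not analysed here. Alternatives covered the filter, scaling, variance model, array weights, replicate block, threshold, probe set choice and each array left out. Arrays hold no read counts, and their number limits the precision. Figures were drawn with matplotlib 3.10.9.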

Additional observations from a re-analysis of the deposited data

How the results depend on the processing

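Hgf, Kitl and Pdgfra remained the genes called, with no other of the 10, under 14 of 18 alternatives, including each of the 6 arrays left out, where the count was 3 throughout. The count was 5, with Met and Pdgfc added, with the cutoff at 5.0, with an intensity trend in the variance and with probe sets of a single symbol. At the cutoff of 5.0, Hgf was kept only through its wild type mean (6.10, against 4.58 in 8KR cells). Pdgfb was not tested there, with means of 4.54 in 8KR cells and 4.48 in wild type cells. With the replicate block the count was 0 in limma, with adjusted p = 0.0516 for Hgf, 0.0756 for Pdgfra and 0.0832 for Kitl. Of the 9 tested members 5 had an unadjusted p under 0.05 from limma there, as did 3248 of all 17145 tested genes. Over all alternatives the adjusted p ran from 1.37e-04 to 0.0516 for Hgf, from 0.00151 to 0.0756 for Pdgfra and from 0.00115 to 0.0832 for Kitl. The sample labels do not say whether same-numbered arrays of the 2 groups belong together. Deviations of such arrays correlated at -0.01, 0.01 and -0.0005, which cannot settle whether they are paired. Paired by number, both ratios had p = 0.25 in an exact sign-flip test, the smallest value that 3 pairs allow. No other value was possible, because each ratio was lower on every 8KR array than on every wild type array.

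Among all genes, 924 were called, and 1737 with the cutoff at 5.0, 1528 with the intensity trend, 1638 with single symbols, 63 with the replicate block, 210 at an adjusted p under 0.01 and 274 to 293 without 1 array. Of the 88 other pathway genes 11 were called. Their count was 0 with the replicate block and 6 with the ordinary test per probe set. It was 2 at an adjusted p under 0.01 and 2 to 4 without 1 array. With the replicate block 22 of the 88 had an unadjusted p under 0.05 from limma, beside 3248 of all 17145 tested genes. Only Pdgfa changed sign, with a log2 difference of 0.03 that became -0.0028 with arrays centred on their medians and ran from -0.049 to 0.087 without 1 array. The cause of these changes was not tested, and only some of the alternatives hold fewer arrays or probe sets.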
